A study of Mus musculus with 24 samples.

Results

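The interferon-induced genes and the interferon regulatory factors (IRF) of mouse liver were followed over 4 doses of dichloroacetic acid (DCA). Members were every gene of the expression table whose symbol begins with Ifi, Ifit or Ifitm and a family ending, Ifih, Irf, Irgm, Iigp, Gbp, Isg, Mx or Oas. The rule used symbols and no measured value, but it was chosen with earlier results of these data known. It found 66 of the 15582 genes used. Of the 66, 49 reached 0.5 RPKM (reads per kilobase of gene, scaled to the library's reads) in at least 6 libraries and were tested. Type I interferon-induced families held 38 members (23 tested), gamma-induced families 16 (15 tested), the IRF factors 9 (8 tested) and the IRF2-binding proteins, which match by name, 3 (3 tested).

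The livers came from male B6C3F1 mice, 4 weeks old by the labels, that received DCA in their drinking water for 6 days at 0, 1, 2 or 3.5 g/L. Each dose had 6 libraries of total RNA depleted of ribosomal RNA, made from frozen tissue of mixed lobes, so 24 libraries in all. DCA is a small chlorinated acid that forms when water is disinfected and that inhibits pyruvate dehydrogenase kinase. The labels give neither a transgene nor a second treatment, and they do not say in so many words that each library is a separate animal, so the p-values measure the spread between these libraries.

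Interferons are secreted proteins that bind receptors on nearly every cell and switch on a large set of defence genes. Type I interferons (alpha and beta) act through a complex that holds IRF9 and binds the interferon-stimulated response element, whereas interferon gamma acts mainly through gamma-activated sites and through IRF1. In liver, hepatocytes, Kupffer cells (the resident macrophages) and endothelial cells all respond, and a low basal level of many of these genes is held without infection. Bulk tissue does not separate these sources: fewer cells of a type and less RNA per cell cannot be told apart.

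The windows just upstream of the start are shown for 6 members, because they hold the element by which the family is known and because these members differ in how they moved. Sequences were taken from RefSeq for GRCm38.p6, the 160 bases before 1 annotated start, 5′ to 3′ on the strand of the gene. For Ifit3 that start lies inside the gene's annotated span (chr19:34583119-34588982), and so does the whole window. For Oas1a the end of the window nearest the start lies inside the span (chr5:120896256-120907544). Capitals mark matches, on either strand, to the core of the interferon-stimulated response element, searched as GAAA, any 2 bases and GAAA again. The windows lie at chr4:156200819-156200978 (minus strand) for Isg15, chr19:34640729-34640888 (plus) for Ifit1, chr19:34583369-34583528 (plus) for Ifit3, chr5:120907526-120907685 (minus) for Oas1a, chr11:48871421-48871580 (minus) for Irgm1 and chr11:58214817-58214976 (plus) for Irgm2.
Isg15: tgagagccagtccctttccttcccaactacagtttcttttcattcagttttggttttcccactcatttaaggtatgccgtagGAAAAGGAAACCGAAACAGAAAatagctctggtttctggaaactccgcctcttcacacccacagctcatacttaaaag
Ifit1: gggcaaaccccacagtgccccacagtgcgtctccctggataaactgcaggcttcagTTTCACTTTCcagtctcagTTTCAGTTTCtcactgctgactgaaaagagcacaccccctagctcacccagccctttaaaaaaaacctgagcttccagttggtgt
Ifit3: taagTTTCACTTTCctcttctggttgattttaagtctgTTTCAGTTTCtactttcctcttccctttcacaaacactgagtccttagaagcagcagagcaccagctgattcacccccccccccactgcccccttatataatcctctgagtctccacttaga
Oas1a: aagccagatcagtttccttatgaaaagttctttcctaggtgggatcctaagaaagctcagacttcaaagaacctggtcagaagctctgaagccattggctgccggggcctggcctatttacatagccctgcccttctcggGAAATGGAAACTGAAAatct
Irgm1: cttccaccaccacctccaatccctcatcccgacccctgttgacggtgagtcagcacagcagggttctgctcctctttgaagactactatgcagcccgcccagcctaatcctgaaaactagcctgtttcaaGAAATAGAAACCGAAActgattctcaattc
Irgm2: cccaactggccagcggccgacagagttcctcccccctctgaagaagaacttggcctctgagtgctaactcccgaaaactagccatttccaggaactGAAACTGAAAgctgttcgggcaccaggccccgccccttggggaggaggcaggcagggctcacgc
The core matched 3 times before Isg15, in an overlapping run, and 2 times each before Ifit1, Ifit3, Oas1a and Irgm1. Irgm2, which was called lower from 2 to 3.5 g/L but not against control at any dose, carried 1 match. Whether the number of matches goes with the change was not tested.

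Promoters of 300 bases (250 before and 50 after the start) were found for 48 of the 66 members. The response element core occurred on either strand in 20 of the 48 (41.7%), against 3.99% of all 27025 promoters in the table and 3.46% of the 4907 tested genes with a promoter. Among gamma-induced members 7 of 9 held it, among type I members 12 of 28, and among IRF factors 1 of 8, which was Irf2. The gamma-activated site TTCNNNGAA occurred on either strand in 14 of the 48 (29.2%), against 9.55% of all promoters and 8.01% of those of tested genes. Of the members that were lower at 3.5 g/L and had a promoter, 10 of 18 (55.6%) held the response element core, and of the tested members that were not lower 5 of 17 (29.4%) did. These counts describe letters in a window, and the difference between the latter pair of shares was not tested.

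With dose, the called members mostly fell. No member passed the threshold at 1 g/L (limma, adjusted p under 0.05), where 11.4% of all 6540 tested genes did (8.35% higher and 3.03% lower), and 7 members had an unadjusted p under 0.05, 4 of them lower, as did 28.3% of all tested genes. At 2 g/L, 16 of the 49 (32.7%) were lower and 2 higher, against 10% of all tested genes lower and 41.9% higher (51.9% in either direction). The highest dose, 3.5 g/L, had 27 (55.1%) lower and 2 higher, against 12.9% lower and 38.6% higher (51.5% in either direction). The line over dose had 27 members falling and 3 rising, against 12.6% and 38% of all genes (50.6% in either direction). The median member differed from control by −0.02, −0.11 and −0.21 on the log2(RPKM + 1) scale at 1, 2 and 3.5 g/L, and the median of all tested genes by 0.05, 0.12 and 0.10. All 3 doses were compared with the same 6 control libraries, so their results are not independent. A difference on this scale understates the fold of genes near or under 1 RPKM.

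The groups were also compared by their overlap. At 2 g/L, all 6 libraries lay below all 6 controls for 6 members (Gbp10, Ifi203, Ifit1, Irf5, Irf7 and Oas2), against 3.1% of all tested genes. It held for 16 members at 3.5 g/L, against 5.86%. No member had all 6 libraries above all controls at any dose, whereas 3.01%, 20.2% and 22% of all tested genes did at 1, 2 and 3.5 g/L. Between neighbouring doses, 11 members fell from 1 to 2 g/L and 1 rose (background 5.63% lower and 22.7% higher, 28.4% in either direction), and 7 fell from 2 to 3.5 g/L and none rose (5.54% lower and 4.79% higher, 10.3% in either direction). The count of 7 was 2 (Ifitm3 and Irf5) without library 102 of 3.5 g/L, and 3 or 4 without any 1 of libraries 75, 77 and 78 of 2 g/L and 97, 98, 99 and 100 of 3.5 g/L.

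**Figure D1:**
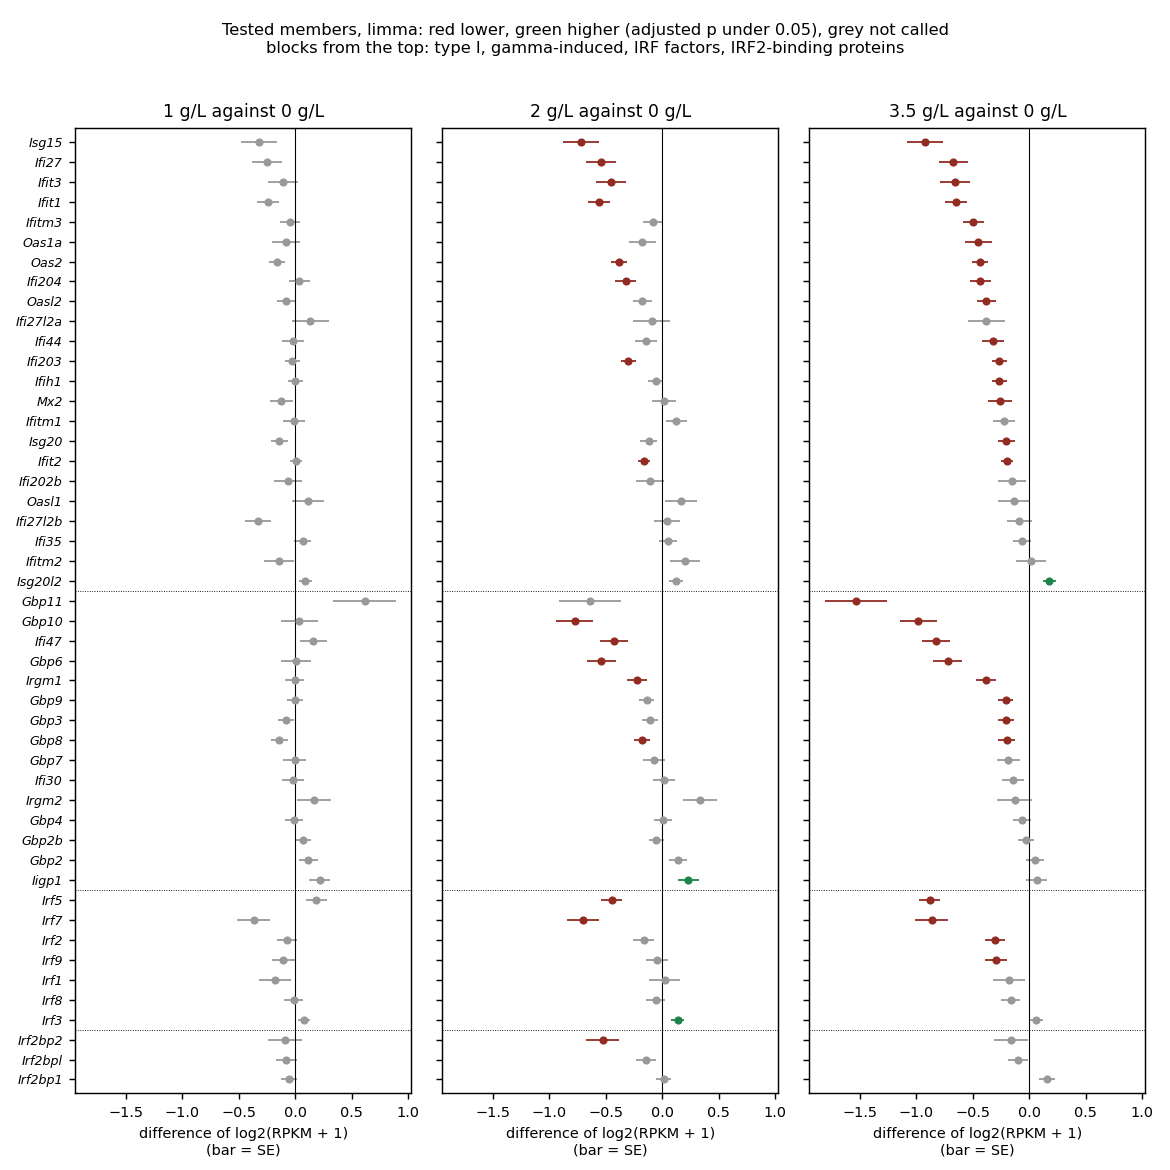
Difference from the 0 g/L mean on the log2(RPKM + 1) scale (horizontal axis, bar = SE) for the tested members that are reported by name at 1, 2 and 3.5 g/L, 6 libraries per dose, in blocks for type I, gamma-induced, IRF and IRF2-binding members. No point is coloured at 1 g/L, 16 are lower at 2 g/L and 27 at 3.5 g/L. Gbp11 lies farthest to the left (−1.53).

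Limits common to these counts are the scaling and a tag in the sample titles. Rescaling the libraries by median ratios moved the median of all genes to about 0 (−0.002 at 2 g/L and −0.004 at 3.5 g/L). It raised the members called lower to 24 at 2 g/L and 33 at 3.5 g/L and left none called higher, while the share of all tested genes called lower rose to 21.1% and 23.3%. The share of higher calls among all called genes then went from 80.6% to 50.2% at 2 g/L and from 75% to 50.2% at 3.5 g/L. Titles carry L1, L2 or L3, which the labels do not explain: the controls are all L1, 1 g/L is split 3 and 3 between L1 and L2, all libraries of 2 g/L are L2 and those of 3.5 g/L are L3. With the tag as a term, 2 members stayed lower at 2 g/L (Gbp10 and Ifi203) and 864 genes in place of 3395 were called, with a median SE of 0.12 in place of 0.07. The median member was then at −0.11, as without the term. At 3.5 g/L, dose and tag cannot be told apart.

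Most markers of resident macrophages were called lower at 3.5 g/L, and at 2 g/L the calls depended on the scaling. Of 17 tested Kupffer cell and macrophage markers (19 of 20 in the table), none was called at 1 or 2 g/L with limma (1 and 0 with an unadjusted p under 0.05), and 12 were lower at 3.5 g/L. The median marker stood at −0.11, −0.004 and −0.35 at the 3 doses. With median ratios 1 marker was lower at 2 g/L and with quantile normalization 3 were. Their summed RPKM ran from 126 to 182 in controls, 120 to 148 at 1 g/L, 86.7 to 185 at 2 g/L and 84.7 to 115 at 3.5 g/L. Clec4f, a lectin of Kupffer cells, fell by 0.55 (SE 0.10, limma adjusted p = 0.000116) at 3.5 g/L. At 2 g/L the marker means of single libraries spread from −0.52 to 0.34. The part of any marker change in the members' change was not tested at either of these doses. One T, NK and B cell marker was tested of 21 present, Cd4, which fell by 0.45 at 2 g/L and by 0.43 at 3.5 g/L, from a control median of 0.62 RPKM. Of 13 endothelial markers, 1 was lower at 2 g/L and 2 at 3.5 g/L, and under median ratios 6 and 7 were. Of 14 hepatocyte markers, which check the labelled tissue, 8 were lower at 2 g/L and 10 lower and 2 higher at 3.5 g/L. Their summed level was 24791 to 39722 RPKM over all libraries. Beside these marker counts, 10% of all tested genes were lower and 41.9% higher at 2 g/L, and 12.9% and 38.6% at 3.5 g/L. Under median ratios 21.1% and 23.3% of all tested genes were lower at these doses.

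**Figure D2:**
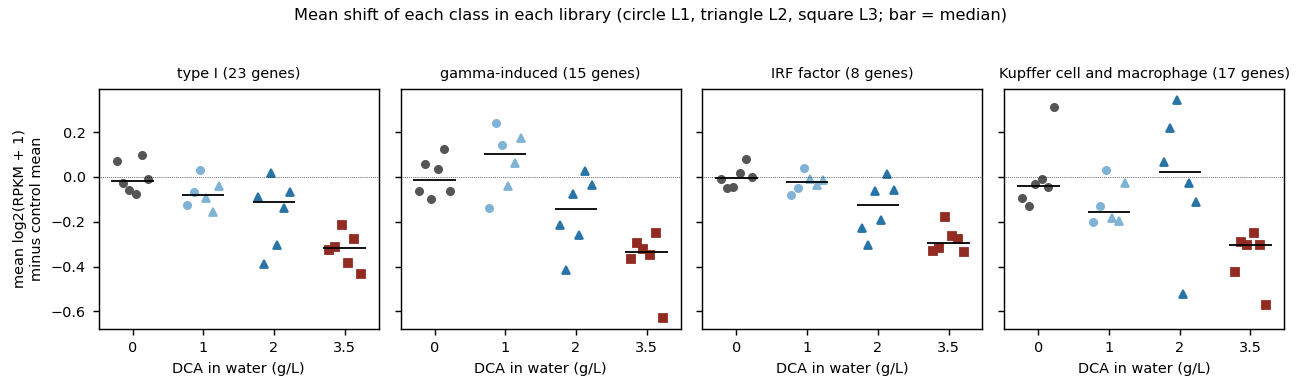
Mean difference of log2(RPKM + 1) from the control mean (vertical axis) in each of 24 libraries by dose, for type I members, gamma-induced members, IRF factors and Kupffer cell markers, with the median of 6 libraries as a bar. All 6 libraries at 3.5 g/L lie below all controls in every panel, the marker panel included. At 2 g/L the marker panel spreads from −0.52 to 0.34.

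Single libraries differed within a dose. At 2 g/L the type I mean ran from −0.39 in library 74 to 0.02 in library 75, with Kupffer marker means of 0.22 and 0.34 in those libraries, and library 76 had the lowest marker mean (−0.52) with a type I mean of −0.30. At 3.5 g/L, library 102 had the lowest type I (−0.43), gamma-induced (−0.63) and marker (−0.57) means. Lcn2, an acute-phase and neutrophil gene, stood at 153 RPKM in control library 8 and at 125 and 98.5 RPKM in libraries 75 and 74 of 2 g/L, against 0.92 to 19.8 in the other 21. Without these 3 libraries 14 members were lower at 2 g/L and 26 at 3.5 g/L. Depth was estimated at about 23300000 to 27700000 reads per library, and 0.5 RPKM corresponded to 6 to 101 reads for the tested members (median 43).

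The type I families fell in part. At 3.5 g/L 15 of the 23 tested members were lower and 1 higher (median −0.27), and at 2 g/L 8 were lower and none higher (median −0.12). At 1 g/L the median was −0.07. Beside these counts and those of the type I families below, 10% of all tested genes were lower and 41.9% higher at 2 g/L. At 3.5 g/L these shares were 12.9% and 38.6%. Under median ratios 21.1% and 23.3% of all tested genes were lower at 2 and 3.5 g/L. In the values that follow, each dose is given by its lowest, median and highest library in RPKM.

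Isg15, a ubiquitin-like protein joined to other proteins after interferon, had the largest fall of the type I members on the log2(RPKM + 1) scale. As a ratio of mean RPKM at 3.5 g/L to control it stood at 0.418, with Oas2 at 0.366 and Ifit1 at 0.399 below it. It stood at 2.92, 4.35 and 5.80 RPKM in controls, 2.97, 3.21 and 3.98 at 1 g/L, 0.840, 2.55 and 3.75 at 2 g/L and 1.35, 1.83 and 2.46 at 3.5 g/L. Its 6 libraries at 3.5 g/L lay below every control, and those at 1 and 2 g/L overlapped the controls. The difference was −0.32 (SE 0.16, adjusted p = 0.187) at 1 g/L, −0.72 (adjusted p = 0.000695) at 2 g/L and −0.92 (adjusted p = 3.99e-05) at 3.5 g/L. With the tag as a term the value at 2 g/L was −0.54 (SE 0.29, adjusted p = 0.234). Isg20, an RNA exonuclease, stood at 0.351, 0.645 and 0.996 RPKM in controls, 0.420, 0.521 and 0.573 at 1 g/L, 0.381, 0.522 and 0.817 at 2 g/L and 0.329, 0.446 and 0.546 at 3.5 g/L, where it was lower by a small step (−0.20, adjusted p = 0.0278) with groups that overlapped. That call ended without control 6 or 8 or library 97, 98 or 102 (adjusted p up to 0.0888). Isg20l2, which shares the exonuclease fold and works in ribosome formation, was counted among the type I members by its symbol alone. It was the 1 of them called higher (0.18 at 3.5 g/L, adjusted p = 0.0138), and that call ended under median ratios and quantile normalization. Its libraries ran 2.97, 3.40 and 3.78 RPKM in controls, 3.46, 3.76 and 3.83 at 1 g/L, 3.42, 3.79 and 4.32 at 2 g/L and 3.56, 3.98 and 4.71 at 3.5 g/L.

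The Ifit proteins bind foreign RNA and block its translation, and all 3 tested members fell at both 2 and 3.5 g/L. Ifit1 stood at 1.15, 1.52 and 2.21 RPKM in controls, 0.914, 1.14 and 1.39 at 1 g/L, 0.294, 0.836 and 0.925 at 2 g/L and 0.434, 0.594 and 0.887 at 3.5 g/L. All libraries at 2 and 3.5 g/L lay below all controls. The difference was −0.24 (adjusted p = 0.103), −0.56 (adjusted p = 5.98e-05) and −0.65 (adjusted p = 7.83e-06) at the 3 doses. Ifit3 stood at 2.36, 2.96 and 4.03 RPKM in controls, 2.43, 2.56 and 2.98 at 1 g/L, 0.852, 2.10 and 2.85 at 2 g/L and 1.09, 1.43 and 2.07 at 3.5 g/L. It fell by 0.45 at 2 g/L and by 0.66 at 3.5 g/L, where its groups no longer overlapped. Since 51.2% of its 50-base words also occur in Ifit3b, reads could be split between them and its level is uncertain. Ifit2 stood at 0.673, 0.788 and 0.924 RPKM in controls, 0.779, 0.783 and 0.838 at 1 g/L, 0.393, 0.661 and 0.743 at 2 g/L and 0.439, 0.575 and 0.715 at 3.5 g/L, a smaller change (−0.16 and −0.20 at 2 and 3.5 g/L). Without library 74 its adjusted p at 2 g/L was 0.0509.

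**Figure D3:**
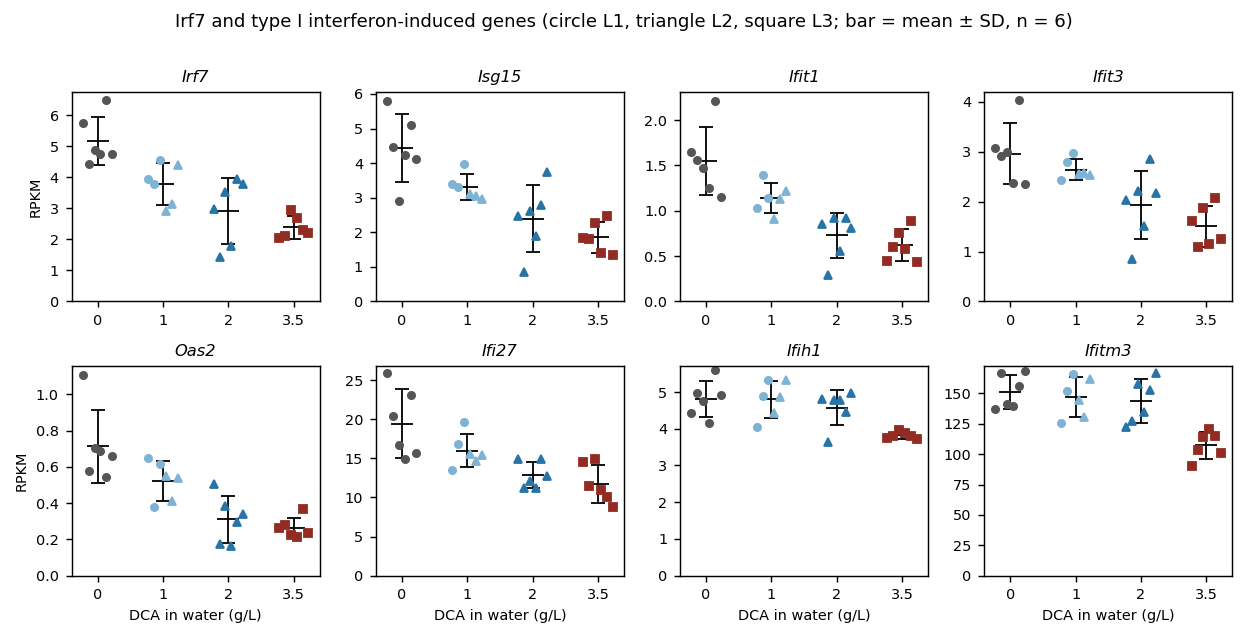
RPKM (vertical axes, from 0) of Irf7 and 7 type I members in each library by DCA dose, with the mean and SD of 6 libraries and the title tag as the symbol. Irf7, Isg15, Ifit1, Ifit3, Oas2 and Ifi27 are lower from 2 g/L, whereas Ifih1 and Ifitm3 are lower at 3.5 g/L, where their libraries lie at 3.72 to 3.97 and at 90.1 to 120 RPKM.

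Oligoadenylate synthetases make the small messenger that activates RNase L, and 3 of the 4 tested members were lower at 3.5 g/L. Oas2 stood at 0.546, 0.672 and 1.11 RPKM in controls, 0.378, 0.543 and 0.647 at 1 g/L, 0.160, 0.318 and 0.504 at 2 g/L and 0.212, 0.246 and 0.365 at 3.5 g/L. All libraries at 2 and 3.5 g/L were under all controls, with differences of −0.39 (adjusted p = 9.64e-05) and −0.44 (adjusted p = 1.79e-05). No library at 3.5 g/L reached 0.5 RPKM, so that Oas2 passed the minimum through the lower doses. Oas1a stood at 0.919, 1.36 and 1.63 RPKM in controls, 0.688, 1.14 and 1.62 at 1 g/L, 0.512, 0.919 and 1.75 at 2 g/L and 0.591, 0.667 and 0.775 at 3.5 g/L. The 2 g/L libraries spanned the whole control range, and those at 3.5 g/L lay under it (−0.45, adjusted p = 0.00319). Oas1g shares 57.6% of the 50-base words of Oas1a. Oasl2, an OAS-like protein, stood at 0.734, 0.891 and 1.08 RPKM in controls, 0.641, 0.733 and 1.14 at 1 g/L, 0.326, 0.742 and 0.960 at 2 g/L and 0.326, 0.482 and 0.582 at 3.5 g/L (−0.38, adjusted p = 0.000553). Oasl1, known to hold back the translation of Irf7, was not called, with 0.854, 1.23 and 2.54 RPKM in controls, 0.915, 1.64 and 2.09 at 1 g/L, 0.781, 1.76 and 2.16 at 2 g/L and 1.00, 1.10 and 1.48 at 3.5 g/L. Mx2, a dynamin-like GTPase, stood at 1.90, 2.17 and 2.80 RPKM in controls, 1.51, 1.99 and 2.56 at 1 g/L, 1.72, 2.14 and 3.53 at 2 g/L and 1.34, 1.76 and 2.13 at 3.5 g/L, and was lower at 3.5 g/L (−0.26, adjusted p = 0.0382). Without control 3, 6 or 8 or library 97, 100 or 101 it was not called (adjusted p up to 0.0993).

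The group of Ifi27, Ifi35, Ifi44 and Ifih1 had 6 tested members, of which 1 was lower at 2 g/L and 3 at 3.5 g/L. The share at 2 g/L (16.7%) was near that of all tested genes (10%). Ifi27, a small membrane protein, stood at 14.9, 18.6 and 25.9 RPKM in controls, 13.6, 15.5 and 19.7 at 1 g/L, 11.2, 12.4 and 15.0 at 2 g/L and 8.79, 11.2 and 14.9 at 3.5 g/L. It fell by 0.54 at 2 g/L (adjusted p = 0.00136) and by 0.67 at 3.5 g/L (adjusted p = 0.000148), with groups that touched. Ifih1, a sensor of double-stranded RNA, stayed at 4.16, 4.83 and 5.60 RPKM in controls, 4.04, 4.87 and 5.33 at 1 g/L and 3.65, 4.78 and 4.97 at 2 g/L. At 3.5 g/L it stood at 3.72, 3.79 and 3.97 RPKM, under every control (−0.26, adjusted p = 0.00144), and the step from 2 to 3.5 g/L was called (−0.21, adjusted p = 0.0424) but was lost without any 1 of 11 of those 12 libraries (all but 74). Ifi44 stood at 0.646, 0.853 and 1.19 RPKM in controls, 0.645, 0.829 and 1.03 at 1 g/L, 0.304, 0.670 and 1.14 at 2 g/L and 0.364, 0.517 and 0.580 at 3.5 g/L (−0.32, adjusted p = 0.00762). Ifi35 was level, with 5.99, 7.15 and 7.69 RPKM in controls, 6.71, 7.41 and 7.99 at 1 g/L, 6.02, 7.11 and 8.81 at 2 g/L and 5.60, 6.71 and 7.68 at 3.5 g/L. Ifi27l2a was called in the line over dose alone (−0.12 per g/L, adjusted p = 0.0253), from 1.05, 1.46 and 2.04 RPKM in controls through 1.08, 1.72 and 3.02 at 1 g/L and 0.560, 1.61 and 1.98 at 2 g/L to 0.425, 0.924 and 1.53 at 3.5 g/L, and was not called without library 100 (adjusted p = 0.0782). Ifi27l2b went the other way between 1 and 2 g/L (0.38, adjusted p = 0.0154), with no library at 1 g/L at 0.5 RPKM (0.164, 0.278 and 0.404).

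The Ifi200 genes encode DNA-binding proteins of myeloid cells, and 2 of 3 tested were lower at 2 and at 3.5 g/L. Ifi203 stood at 1.93, 2.13 and 2.30 RPKM in controls, 1.83, 2.05 and 2.35 at 1 g/L, 1.25, 1.52 and 1.86 at 2 g/L and 1.28, 1.52 and 1.98 at 3.5 g/L. It fell by 0.30 at 2 g/L (adjusted p = 0.000703) and kept that call with the tag as a term (−0.34, adjusted p = 0.0468). Ifi204 stood at 1.16, 1.59 and 2.18 RPKM in controls, 1.49, 1.66 and 1.83 at 1 g/L, 0.531, 1.13 and 1.40 at 2 g/L and 0.659, 0.904 and 1.22 at 3.5 g/L, lower by 0.33 and 0.43 with groups that overlapped. Ifi202b ran from 0.236 to 1.38 RPKM over the 24 libraries and was not called.

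The Ifitm proteins sit in endosomal membranes and block virus entry, and Ifitm3 was the highest member per length in the whole set. It stood at 137, 148 and 168 RPKM in controls, 125, 148 and 166 at 1 g/L and 122, 143 and 167 at 2 g/L, ranges that overlapped almost fully. At 3.5 g/L it stood at 90.1, 109 and 120 RPKM, under every other library of the series (−0.49, SE 0.09, adjusted p = 8.2e-05), and the step from 2 g/L was called (−0.41, adjusted p = 0.00556). Ifitm2 showed no such step, with 59.8, 68.7 and 111 RPKM in controls, 54.9, 65.6 and 77.6 at 1 g/L, 64.8, 80.2 and 114 at 2 g/L and 65.7, 73.4 and 85.2 at 3.5 g/L. Of its 50-base words 48.5% occur in other genes. Ifitm1 was lower from 2 to 3.5 g/L (−0.35, adjusted p = 0.0214) but not against control (−0.23, adjusted p = 0.0519), and the step was lost without library 74 or 102 (adjusted p up to 0.0562).

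The gamma-induced families fell in part too. At 3.5 g/L 8 of 15 tested members were lower and none higher (median −0.20), and at 2 g/L 5 were lower and 1 higher (median −0.10). Beside these counts and those of the gamma-induced families below, 12.9% of all tested genes were lower and 38.6% higher at 3.5 g/L. At 2 g/L these shares were 10% and 41.9%. The guanylate-binding proteins (Gbp), large GTPases that attack the vacuoles of intracellular microbes, had 3 of 10 lower at 2 g/L and 6 of 10 at 3.5 g/L.

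Gbp11 had the largest fall of all members. It stood at 6.98, 8.44 and 11.9 RPKM in controls and at 8.93, 13.2 and 23.0 at 1 g/L, a difference from control that was not called (0.61, SE 0.28, adjusted p = 0.146). At 2 g/L its libraries scattered over 2.09, 5.37 and 11.8 RPKM (−0.64, adjusted p = 0.0572), and at 3.5 g/L they stood at 1.27, 2.36 and 4.22, under every control (−1.53, adjusted p = 6.97e-05). The steps from 1 to 2 g/L (−1.25, adjusted p = 0.00174) and from 2 to 3.5 g/L (−0.89, adjusted p = 0.0414) were both called, the latter lost without any 1 of libraries 76, 77, 78, 97, 98, 99, 100 and 102. Gbp10 stood at 2.06, 2.73 and 5.37 RPKM in controls, 1.99, 3.36 and 3.93 at 1 g/L, 0.635, 1.54 and 1.80 at 2 g/L and 0.455, 1.17 and 1.39 at 3.5 g/L. It lay under all controls at 2 g/L (−0.78, adjusted p = 0.000403) and at 3.5 g/L (−0.98, adjusted p = 2.39e-05), and its value with the tag as a term was −0.91 at 2 g/L (adjusted p = 0.0461). Gbp6 stood at 1.55, 2.19 and 3.39 RPKM in controls, 1.42, 2.58 and 2.87 at 1 g/L, 0.840, 1.29 and 1.76 at 2 g/L and 0.489, 1.11 and 1.20 at 3.5 g/L, falling by 0.54 and 0.72. Gbp10 shares 84.1% of its 50-base words with other genes, mostly Gbp6 (73.3%). Gbp6 shares 70.7%, mostly with Gm43302 (65.0%). Exons of Gm43302 overlap those of both genes on the same strand, and Gm43302 is not among the genes used here. The values of the pair Gbp10 and Gbp6 are therefore not independent.

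Gbp9, Gbp3 and Gbp8 fell by about 0.2 at 3.5 g/L. Gbp9 stood at 1.34, 1.40 and 1.68 RPKM in controls, 1.31, 1.42 and 1.61 at 1 g/L, 0.888, 1.29 and 1.43 at 2 g/L and 0.905, 1.03 and 1.61 at 3.5 g/L (−0.21, adjusted p = 0.0123). Gbp3 stood at 0.736, 0.826 and 1.07 RPKM in controls, 0.623, 0.763 and 0.813 at 1 g/L, 0.452, 0.800 and 0.952 at 2 g/L and 0.370, 0.649 and 0.775 at 3.5 g/L (−0.21, adjusted p = 0.0174). Gbp8 stood at 0.684, 0.826 and 0.983 RPKM in controls, 0.473, 0.653 and 0.866 at 1 g/L, 0.454, 0.541 and 0.918 at 2 g/L and 0.369, 0.619 and 0.768 at 3.5 g/L, and was called at both upper doses (−0.18 and −0.20). Groups overlapped for all 3 genes. At 3.5 g/L the call for Gbp3 ended without library 102 (adjusted p = 0.0569) and that for Gbp8 without control 3 or 6 or library 97 or 102, and at 2 g/L that for Gbp8 ended without any 1 of 13 libraries (adjusted p up to 0.109). Gbp2, Gbp2b, Gbp4 and Gbp7 were not called in any comparison and ran from 0.265 to 2.35 RPKM. By chromosome, 5 of the 6 tested genes on chromosome 5 and 1 of the 4 on chromosome 3 were lower at 3.5 g/L, a split noticed after the values were seen and not tested.

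**Figure D4:**
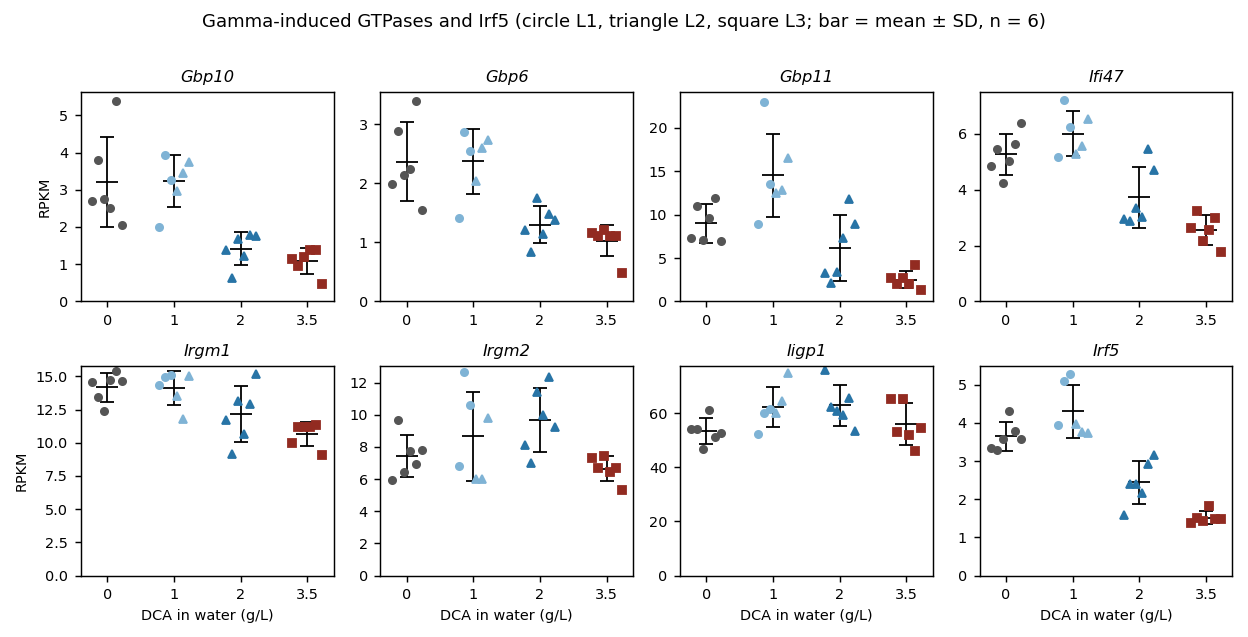
RPKM (vertical axes, from 0) of 7 gamma-induced GTPase genes and Irf5 in each library by DCA dose, with the mean and SD of 6 libraries and the title tag as the symbol. Gbp11 is highest at 1 g/L (median 13.2) and lowest at 3.5 g/L (median 2.36), Irf5 falls in steps to 1.37 to 1.83, and Iigp1 does not fall below its control range except in 1 library at 46.3.

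Immunity-related GTPases, the smaller partners of the guanylate-binding proteins, had 4 tested members. Of these, 2 were lower and 1 higher at 2 g/L, and 2 were lower and none higher at 3.5 g/L. Ifi47 stood at 4.26, 5.25 and 6.40 RPKM in controls, 5.19, 5.91 and 7.22 at 1 g/L, 2.89, 3.18 and 5.47 at 2 g/L and 1.77, 2.58 and 3.23 at 3.5 g/L. It fell by 0.43 at 2 g/L (adjusted p = 0.00518) and by 0.82 at 3.5 g/L (adjusted p = 5.57e-06), where its libraries were under all controls. Irgm1, which keeps the other GTPases off the cell's own membranes, stood at 12.4, 14.6 and 15.4 RPKM in controls, 11.8, 14.7 and 15.1 at 1 g/L, 9.16, 12.3 and 15.2 at 2 g/L and 9.06, 11.2 and 11.3 at 3.5 g/L. It fell by 0.22 (adjusted p = 0.0367) and 0.38 (adjusted p = 0.000791), the former not called without control 3, 6, 7 or 8 or library 73, 74 or 76. Iigp1 was the highest gamma-induced member, with 46.8, 53.5 and 61.3 RPKM in controls, 52.3, 60.9 and 75.1 at 1 g/L, 53.6, 61.5 and 75.9 at 2 g/L and 46.3, 53.9 and 65.4 at 3.5 g/L. It was called higher at 2 g/L (0.23, adjusted p = 0.0419), a call that ended under median ratios and quantile normalization and without any 1 of 9 libraries (all controls but 6, and 73, 74, 75 or 77). Irgm2 was lower from 2 to 3.5 g/L (−0.47, adjusted p = 0.049) but not against control (−0.13), from 6.99, 9.62 and 12.4 RPKM to 5.31, 6.69 and 7.43, and the step was lost without any 1 of 15 libraries. Ifi30, a lysosomal thiol reductase of antigen processing, was not called, with 4.59, 5.06 and 6.40 RPKM in controls, 4.69, 5.02 and 5.79 at 1 g/L, 3.99, 5.16 and 6.69 at 2 g/L and 3.79, 4.50 and 5.85 at 3.5 g/L.

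Of the 8 tested IRF factors, 2 were lower (Irf5 and Irf7) and 1 higher (Irf3) at 2 g/L, and 4 were lower at 3.5 g/L. The shares of all tested genes were 10% lower and 41.9% higher at 2 g/L, and 12.9% lower and 38.6% higher at 3.5 g/L. Irf7, which drives interferon alpha genes and is itself interferon-induced, stood at 4.42, 4.83 and 6.49 RPKM in controls, 2.90, 3.87 and 4.57 at 1 g/L, 1.44, 3.26 and 3.94 at 2 g/L and 2.06, 2.25 and 2.95 at 3.5 g/L. Its libraries at both doses above 1 g/L lay under all controls. It differed from control by −0.37 (SE 0.14, adjusted p = 0.0907), −0.70 (adjusted p = 0.000288) and −0.87 (adjusted p = 2.26e-05) at the 3 doses. With the tag as a term its value at 2 g/L was −0.50 (SE 0.27, adjusted p = 0.228). Irf5, a factor of Toll-like receptor signalling in macrophages, stood at 3.29, 3.57 and 4.32 RPKM in controls and 3.74, 3.96 and 5.28 at 1 g/L. It then stood at 1.58, 2.41 and 3.17 RPKM at 2 g/L and 1.37, 1.49 and 1.83 at 3.5 g/L, under all controls at both doses. Its difference was 0.18 (adjusted p = 0.197), −0.45 (adjusted p = 0.000368) and −0.88 (adjusted p = 4.43e-08), the last with the smallest p-value of any member in that comparison. The steps from 1 to 2 g/L (−0.63) and from 2 to 3.5 g/L (−0.44) were both called. From 1 to 2 g/L the call held within the L2 libraries (−0.50, adjusted p = 0.0386), whereas against control at 2 g/L the value with the tag as a term was −0.19 (adjusted p = 0.468). An exon of Tnpo3 on the opposite strand overlaps 411 bases of Irf5, and the sources used here do not say whether counting used strand.

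Irf2, a repressor of the response element, stood at 5.89, 7.55 and 8.21 RPKM in controls, 5.75, 6.85 and 8.15 at 1 g/L, 5.36, 5.95 and 7.79 at 2 g/L and 5.16, 5.44 and 6.84 at 3.5 g/L (−0.30, adjusted p = 0.00697). Irf9, the DNA-binding part of the type I complex, stood at 5.73, 6.10 and 6.53 RPKM in controls, 4.55, 5.71 and 7.05 at 1 g/L, 4.51, 5.74 and 7.40 at 2 g/L and 4.49, 4.53 and 5.85 at 3.5 g/L (−0.30, adjusted p = 0.0154). Both overlapped the controls through their highest libraries. Irf3, which is switched on by phosphorylation rather than by its level, was called higher at 2 g/L (0.14, adjusted p = 0.0417), with 7.69, 8.27 and 8.91 RPKM in controls, 8.33, 8.76 and 9.37 at 1 g/L, 8.15, 9.30 and 10.0002 at 2 g/L and 7.88, 8.62 and 9.82 at 3.5 g/L. Irf3 turned to −0.02 under median ratios and −0.05 under quantile normalization. Irf3 was also not called without control 4, 5, 7 or 8 or library 75, 76 or 77. Irf1, the first factor of the gamma response, ran from 2.24 to 5.87 RPKM and Irf8, a factor of myeloid cells, from 0.532 to 1.25, neither called.

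The IRF2-binding proteins are corepressors rather than interferon-induced genes. Irf2bp2 stood at 5.87, 8.29 and 11.2 RPKM in controls, 6.43, 7.87 and 8.64 at 1 g/L, 3.96, 5.65 and 6.91 at 2 g/L and 4.57, 7.44 and 9.85 at 3.5 g/L. It was lower at 2 g/L (−0.53, adjusted p = 0.00464) and not at 3.5 g/L (−0.16, adjusted p = 0.376). The step between these doses was not called (0.37, adjusted p = 0.115). Irf2bp1 rose in the line over dose (0.05 per g/L, adjusted p = 0.036), from 1.80, 2.39 and 3.00 RPKM in controls through 2.17, 2.22 and 2.59 at 1 g/L and 2.24, 2.35 and 2.92 at 2 g/L to 2.5, 2.76 and 3.21 at 3.5 g/L, a call that ended under median ratios and quantile normalization and without control 7 or 8 or library 100, 101 or 102. Irf2bpl was not called, with 2.07, 2.65 and 3.64 RPKM in controls, 1.99, 2.56 and 2.82 at 1 g/L, 1.97, 2.24 and 2.82 at 2 g/L and 1.97, 2.47 and 2.90 at 3.5 g/L.

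Under the minimum stood 17 members, 15 of type I families besides Gbp5 and Irf4, and none was given a test. Those whose highest library passed 0.5 RPKM were Gbp5 (0.512), Ifi205 (0.523), Ifi44l (0.518), Oas1b (0.642) and Oas1g (0.603). Oas3 reached 0.480 RPKM, Mx1, the antiviral GTPase of the nucleus, 0.329 and Irf4, a lymphocyte factor, 0.192. Ifitm5, Ifitm6, Ifitm7, Ifitm10, Oas1c, Oas1e and Oas1h reached at most 0.398 RPKM, and Oas1d and Oas1f were listed at 0 in all 24 libraries. Of the 49 members at the minimum, 34 reached it in all libraries and 47 in at least 1 library of every dose.

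The genes that make and sense interferon were described from lists chosen with earlier results of these data known. Of 21 interferon genes present, 1 passed the minimum, and 15, Ifnb1 among them, were listed at 0 in all libraries. Ifng did not exceed 0.0306 RPKM in any library. Ifnk, the interferon kappa of skin, had medians of 1.498, 1.55, 1.002 and 1.64 RPKM in order of dose, and was lower at 2 g/L (−0.31, adjusted p = 0.0262), a call lost without the 3 libraries of highest Lcn2 (adjusted p = 0.152). Of 7 tested receptors and kinases, 3 were higher at 2 g/L, and 3 higher and 1 lower at 3.5 g/L. These counts were near the shares of all tested genes, 41.9% higher at 2 g/L, and 38.6% higher and 12.9% lower at 3.5 g/L. Ifngr2, the signalling chain of the gamma receptor, ran from 2.33 to 4.41 RPKM in controls, 4.32 to 7.07 at 2 g/L and 4.61 to 6.07 at 3.5 g/L (0.65 and 0.48, adjusted p = 3.14e-05 and 0.00057). It was also called under median ratios and quantile normalization, while the rises of the type I receptor chains Ifnar1 (0.23 and 0.19) and Ifnar2 (0.16 at 3.5 g/L) and of the kinase Jak1 (0.17 at 2 g/L) were not, and under quantile normalization Jak1 turned to −0.01 and Ifnar2 to −0.04. With the tag as a term, none of the 7 was called at 2 g/L. Ifngr1, the ligand-binding chain, was lower at 3.5 g/L (−0.23, adjusted p = 0.00889).

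Among 10 tested sensors and adaptors, 4 were higher at 2 g/L, and 3 higher and 3 lower at 3.5 g/L. Of all tested genes, 41.9% were higher and 10% lower at 2 g/L, and 38.6% and 12.9% at 3.5 g/L. For these 10 the counts called higher were near the shares of all tested genes called higher. For the lists that follow they were under those shares at both doses. Mavs, the mitochondrial adaptor of the RNA sensors, rose at 3.5 g/L to 25.3 to 31.9 RPKM from 18.8 to 21 in controls (0.51, adjusted p = 5.62e-07), and Myd88, the adaptor of Toll-like receptors, rose by 0.46 (adjusted p = 0.00111). The helicase Ddx60 fell to 0.444 to 0.629 RPKM from 0.770 to 1.10 (−0.33, adjusted p = 1.61e-05), and Mov10 (−0.30) and Dhx58 (−0.24) were lower too. Under median ratios 1 of the 10 was higher and 1 lower at 2 g/L, and 2 were higher and 6 lower at 3.5 g/L, and with the tag as a term none was called at 2 g/L. A list of other type I interferon-induced genes had 21 tested, of which Ddx60, Dhx58, Eif2ak2 and Adar are also among the 10. Of the 21, 4 were higher and 3 lower at 2 g/L, and 1 higher and 9 lower at 3.5 g/L, with Apol9a at −0.89, Apol9b at −0.74 and Fam46a at −0.51. Ddx60 and Dhx58 are 2 of these 9, and Eif2ak2 is 1 of the 4 higher at 2 g/L. At 2 g/L none was higher and 7 lower under median ratios, 1 and 7 under quantile normalization, and 1 and 1 with the tag as a term. Cnp was the 1 gene of these lists called at 1 g/L (−0.33, adjusted p = 0.0273), and it fell by 0.50 and 0.48 at the higher doses. Of 17 other genes listed as gamma-induced (Cxcl10 is also among the 21), 3 were higher and 3 lower at 2 g/L. These counts were 1 and 4 under median ratios, and 1 and 0 with the tag as a term. At 3.5 g/L 1 was higher (Irgq, 0.60) and 7 lower. Among the 7 were Ctss (−0.51), which is also a macrophage marker, and the class I heavy chain H2-K1 (−0.42). Whether each listed gene, Irgq included, responds to interferon gamma was not tested here.

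Within doses, some members varied together from library to library. After the dose means were removed, the median pairwise Pearson r over 24 libraries was 0.66 among 9 members (Ifit1, Ifit2, Ifit3, Isg15, Irf7, Oas1a, Oas2, Oasl2 and Ifi44) and 0.51 among Gbp6, Gbp10, Gbp11, Ifi47 and Irf5. Between these sets it was 0.36, and among all 49 members 0.17. By class it was 0.22 among type I members, 0.43 among gamma-induced members and 0.25 between these classes. The same was not computed over all tested genes. The sets were chosen after the values were seen, the genes share libraries and depth, and the values are a description. Gbp10 shares 73.3% of its 50-base words with Gbp6 (r = 0.93), so this pair is not independent. Isg15 varied most like Ifit2 (r = 0.85) and Irgm1 (r = 0.81), and its r with Irf7 was 0.72 and with Ifi47 0.51.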

How the data were processed

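Liver RNA of 24 libraries (6 per dose) was measured by RNA sequencing. Per the submitters' processing notes, the tools were CASAVA, STAR 2.4 and Partek with the build mm10. The authors deposited one table of RPKM per gene and library, in which 0 stands as 1e-04. Its gene annotation, and whether counting used strand, are not given in the sources used here. The line at which the table breaks off (Olfr272) and 13 symbols turned into dates were left out, and genes later in the table are not analysed here. Of 15582 genes, 6540 reached 0.5 RPKM in at least 6 libraries. Values were analysed as log2(RPKM + 1), computed from the deposited values, with limma 3.58.1 in R 4.3.3. The model had one mean per dose over all 24 libraries, and in a second fit a line over dose, with an expression-dependent prior spread, two-sided tests and Benjamini-Hochberg adjustment over all tested genes at 0.05. The fit was tested on simulated data.

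Alternatives were a pseudocount of 0.1, no filter, a filter of 1 RPKM, median-ratio factors, quantile normalization, each library left out in turn, and the title tag as a term or held fixed. Leaving out the 3 libraries of highest Lcn2 was chosen after seeing the data. The members, families and gene lists were chosen with earlier results of these data known. Named with values were members called against control or over dose and the 2 highest per family, and list genes called in any dose, up to 3 per list and direction. A few others were named after their values were seen, because they were called between neighbouring doses or for their part in the text. One IRF factor enters the counts of members but is not reported here by name or value. Depth was estimated from the steps between low RPKM values of 1045 genes and is approximate.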

Additional observations from a re-analysis of the deposited data

Results flagged for a closer look

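In 9 of 196 pairs of member and dose, 1 library stood apart from the other 5 by more than 0.625 of the whole range. Chance alone gives about 1 in 20 such pairs. The values follow in RPKM, each with the next library of its dose. Gbp3 was low in library 49 of 1 g/L, at 0.623 against 0.743. Gbp6 was low in library 102 of 3.5 g/L, at 0.489 against 1.10, and Gbp9 was high in library 101 of that dose, at 1.61 against 1.13. Ifitm2 was high in control library 8, at 111 against 76.3, which is also the library of highest Lcn2. Irf2bp1 was high in library 49 of 1 g/L, at 2.59 against 2.29, and in library 77 of 2 g/L, at 2.92 against 2.48. Irf5 was high in library 100 of 3.5 g/L, at 1.83 against 1.52, still below every control. Irf9 was high in library 99 of 3.5 g/L, at 5.85 against 4.93, and Oas2 in control library 3, at 1.11 against 0.706.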

How the results depend on the processing

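The count of members called at 3.5 g/L against control (29) and in the line over dose (30) stayed within 1.5 times under every alternative run for them. At 1 g/L, 0 members became 1 under a pseudocount of 0.1, no filter, median ratios, quantile normalization and without the 3 libraries of highest Lcn2. At 2 g/L against control, the tag as a term gave 2 members in place of 18 and 864 genes in place of 3395. At 1 g/L against control it gave 92 genes in place of 744, and the L1 libraries alone gave 50. From 1 to 2 g/L, the tag as a term gave 7 members in place of 12 and 837 genes in place of 1855, the L2 libraries alone 3 members and 589 genes, and leaving out the 3 libraries of highest Lcn2 7 members and 1179 genes. From 2 to 3.5 g/L, no filter gave 3 members in place of 7, and leaving out those 3 libraries gave 432 genes in place of 675. The cause of these changes was not tested, except that the alternatives by tag hold fewer libraries. Irf3 at 2 g/L reversed to −0.0204 under median ratios and −0.0475 under quantile normalization.

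Leaving out each library in turn gave 0 to 1 members and 456 to 971 genes at 1 g/L, the fewest without control 3, and 484 and 476 genes without libraries 54 and 52. It gave 14 to 19 members at 2 g/L and 26 to 32 at 3.5 g/L, 9 to 16 from 1 to 2 g/L and 2 to 9 from 2 to 3.5 g/L. The last was 2 without library 102, 3 without 77, 78, 97 or 99 and 4 without 75, 98 or 100. No paired analysis was possible because the doses share no replicate numbers. Depth limits members near 0.5 RPKM, which rest on a median of 43 reads.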
